A study of Mus musculus with 24 samples.

Results

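Hippocampal RNA of rapamycin-treated *Tsc1*-deleted mice (*Tsc1-Cre+*-Rap 4, n = 4) was compared with that of untreated *Tsc1-Cre-* control mice (n = 4). These mice were taken by the group in their sample titles and make up 8 of the 24 mice sequenced, which fall into 6 groups of 4. All 8 carried *Tsc1* fl/fl alleles, were adult, of 16 to 22 weeks and of both sexes, and received tamoxifen on 4 days. The Rap 4 mice also carried a *Camk2a*-CreERT2 transgene, which removes *Tsc1* in excitatory neurons that express CAMK2A after tamoxifen, whereas the controls lacked it. From day 4 the Rap 4 mice received 10 mg/kg rapamycin daily by i.p. injection, and their RNA was taken on day 13. The controls received no drug beyond tamoxifen, and their RNA was taken on day 8. Untreated *Tsc1-Cre+* mice on day 13 (n = 4) are set beside the 2 groups, and those on days 4, 6 and 8 (n = 4 each) where summed levels of a list are given for all groups. No *Tsc1-Cre-* mice with rapamycin are among the 24, and no group is described as injected with vehicle. Gene deletion, drug, daily injection, day and cohort of animals therefore cannot be told apart in this comparison.

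TSC1 and TSC2 together hold the kinase complex mTORC1 in check, and mTORC1 drives ribosome and protein synthesis, lipid and sterol synthesis and cell growth, while it restrains lysosome formation and autophagy. Loss of TSC1 releases mTORC1, and in the forebrain of mice it leads to enlarged neurons and seizures. Rapamycin binds FKBP12 and blocks mTORC1 in every cell type that it reaches, not only in the neurons that lost *Tsc1*. It is also known as an immunosuppressant and as a drug that slows cell division and vessel growth.

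Levels are given in CPM, the counts of a gene scaled to the size of its library. Total counts ranged from 50460565 to 61083014 per control mouse and from 28208561 to 54924199 per Rap 4 mouse, with the lowest total in Rap 4 mouse A. Mitochondrial genes took 4.1% to 5.01% of the counts in controls and 4.53% to 6.12% in Rap 4 mice. *Xist*, which is transcribed from the inactive X chromosome of females, was above 10 CPM in 3 control and 2 Rap 4 mice. *Prox1*, a marker of dentate granule cells, was at 124 to 141 CPM in controls and 119 to 175 CPM in Rap 4 mice, and *Gad1*, a marker of inhibitory neurons, at 201 to 221 and 198 to 226 CPM, with overlap for both genes. *Ttr*, the defining transcript of choroid plexus, stood apart in control mouse B and Rap 4 mouse C, with 18.4, 1501, 39.8 and 28.8 CPM in control mice A to D and 5.69, 48.1, 465 and 20.7 CPM in Rap 4 mice A to D. The summed level of 19 choroid plexus and ependyma genes ranged from 248 to 2968 CPM in controls and from 181 to 921 CPM in Rap 4 mice. None of 15 genes of brain regions beside the hippocampus passed the test. The gene groups described here come from 32 lists of 752 genes, of which 750 were in the count table and 718 had enough counts to be tested.

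In edgeR's quasi-likelihood test, 93 of 25006 genes had higher levels in Rap 4 mice than in controls (0.372%) and 259 had lower levels (1.04%). These differentially expressed (DE) genes had a Benjamini-Hochberg adjusted p under 0.05 together with a log2 fold change (log2FC) beyond 0.5 in either direction, where positive values mean more RNA in Rap 4 mice. The words rose and fell are used for DE genes alone, and the share of a list that rose or fell is to be read against 0.372% and 1.04%. The lists were chosen with earlier results of these data known. A share above these values therefore describes a list and is no independent support for it. The median log2FC of all tested genes was 0.01. Of the 352 DE genes, 334 had no overlap between the 4 control and the 4 Rap 4 values, against 11.9% of all tested genes. On day 13 without rapamycin, 2093 of 24920 genes were higher than in the same controls (8.4%) and 2008 were lower (8.06%). Counts of list members that were higher or lower on day 13 are to be read against these larger shares. Rap 4 mice differed from day 13 mice in 2412 higher (9.94%) and 2711 lower genes (11.2%) of 24274. The 3 comparisons share mice, so their values are given side by side and not correlated. In a fit of all 24 mice together, in which the groups share an estimate of spread, 162 genes were DE between Rap 4 and control, and 152 of these were among the 352.

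**Figure D1:**
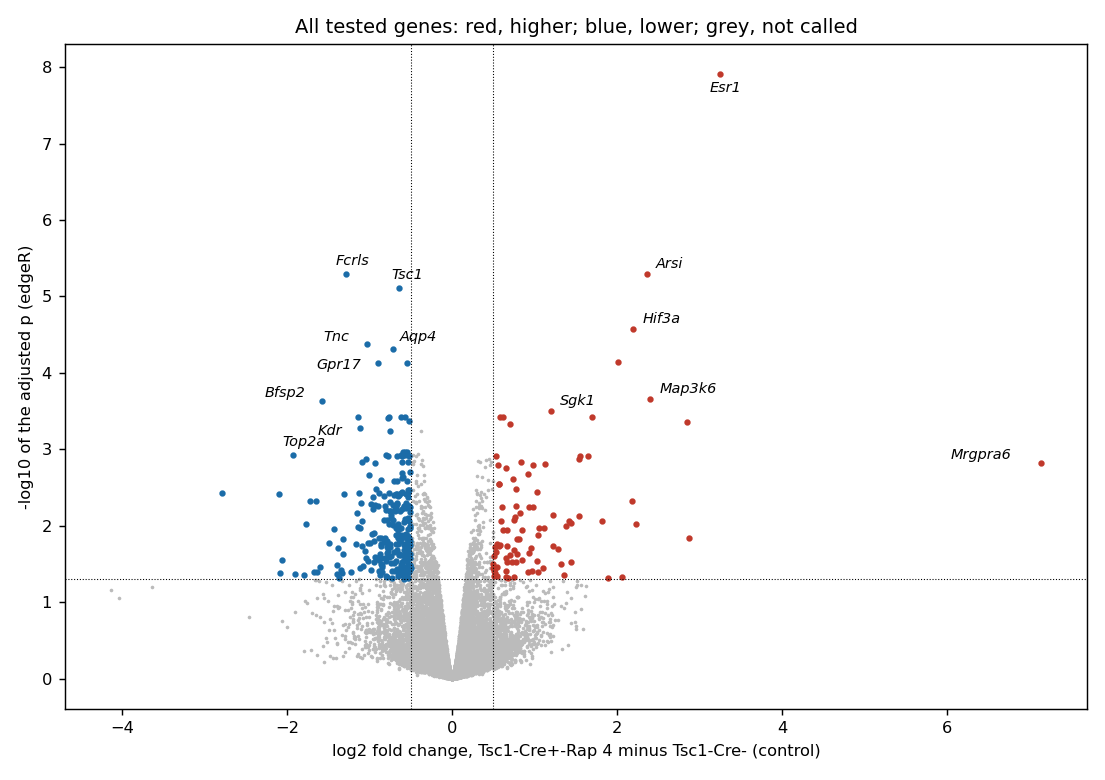
Log2 fold change (Rap 4 minus control, horizontal) against -log10 of the edgeR adjusted p (vertical) for 25006 genes. Dotted lines mark the thresholds, red points the 93 higher and blue points the 259 lower genes. *Mrgpra6*, at the far right, had no count in any control mouse, so that its fitted change is not a measure of size.

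Regulatory sequence is shown for genes of 5 lists that fell and that hold the binding motif of their class. RefSeq promoter windows of GRCm38.p6, from 250 bases before to 50 bases after the transcription start, were searched on both strands. The cell cycle homology region (CHR, TTTGAA or TTCGAA), which is bound by the complex that times mitotic genes, was in 35 of 44 mitosis genes with a window (79.5%) and in 21.7% of all 27025 genes. Of the genes that fell and have a window, 5 of 5 mitosis genes hold the CHR. The interferon-stimulated response element (ISRE, GAAA followed after 2 bases of any kind by another GAAA) was in all 10 interferon-inducible GTPase genes with a window and in 20 of 38 other interferon genes (52.6%), against 3.99% of all genes. A sterol regulatory element (SRE, TCACNCCAC) was in 1 of 24 sterol genes, *Hmgcs1*, which is 1 of 3 that fell and have a window, and in 1.44% of all genes. The E2F motif (TTTCCCGC or TTTGGCGC) was in 10 of 29 replication genes (34.5%) and 1.8% of all genes, and the CCAAT box in 30 of 44 mitosis genes (68.2%) and 41.1%. The ISRE was in 4 of 17 antigen presentation genes (23.5%), and the gamma-activated site (GAS, TTCNNNGAA) in 6 of 10 GTPase genes, 7 of 38 other interferon genes and 1 of 17 antigen presentation genes, against 9.55% of all. Of the replication genes that fell, 0 of 2 hold the E2F motif. The ISRE was in 4 of 4 GTPase, 3 of 7 other interferon and 1 of 4 antigen presentation genes that fell. The lysosomal CLEAR motif (TCACGTGA) was in 7 of 51 lysosome genes (13.7%) and 3 of 13 V-ATPase genes, against 1.12%, and not in the lysosome gene that fell. Matches of different motifs were counted separately and may overlap. A match is a match of letters and not a measured binding site. The 200 bases before the start of *Top2a* (chr11:99024190-99024389, minus strand) hold 4 CHR matches, in capitals. Those of *Gbp3* (chr3:142559844-142560043, plus strand), *Oas1a* (chr5:120907526-120907725, minus strand) and *B2m* (chr2:122147487-122147686, plus strand) have their ISRE matches in capitals, of which 2 overlap in *Gbp3* and in *Oas1a*. *Hmgcs1* (chr13:119690151-119690350, plus strand) has its SRE match in capitals. All are written 5′ to 3′ on the strand of the gene.
Top2a: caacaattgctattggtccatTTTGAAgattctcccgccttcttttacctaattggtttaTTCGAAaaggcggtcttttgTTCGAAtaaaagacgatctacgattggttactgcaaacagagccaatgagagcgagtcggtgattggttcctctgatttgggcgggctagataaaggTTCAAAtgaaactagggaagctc
Gbp3: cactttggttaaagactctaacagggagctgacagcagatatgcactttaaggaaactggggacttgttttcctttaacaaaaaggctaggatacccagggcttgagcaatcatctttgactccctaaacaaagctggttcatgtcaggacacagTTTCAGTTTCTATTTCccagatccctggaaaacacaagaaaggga
Oas1a: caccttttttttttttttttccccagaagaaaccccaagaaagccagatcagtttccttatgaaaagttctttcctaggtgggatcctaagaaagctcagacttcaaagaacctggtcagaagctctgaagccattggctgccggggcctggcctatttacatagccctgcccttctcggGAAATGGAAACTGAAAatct
B2m: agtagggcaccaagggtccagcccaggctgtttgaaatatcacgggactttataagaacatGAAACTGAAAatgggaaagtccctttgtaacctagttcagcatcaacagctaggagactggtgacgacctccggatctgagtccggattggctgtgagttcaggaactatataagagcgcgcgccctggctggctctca
Hmgcs1: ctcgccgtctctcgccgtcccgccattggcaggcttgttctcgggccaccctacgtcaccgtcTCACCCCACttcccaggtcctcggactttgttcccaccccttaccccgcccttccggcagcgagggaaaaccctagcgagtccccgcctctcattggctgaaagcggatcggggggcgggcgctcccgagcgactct

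The targeted gene *Tsc1* (chr2:28641228-28691167, GRCm38) was at 109, 103, 106 and 103 CPM in control mice A to D and at 66.3, 66, 68.1 and 68.9 CPM in Rap 4 mice A to D. All Rap 4 mice lay below all controls (log2FC -0.64 with a standard error, SE, of 0.0426, edgeR adjusted p = 7.74e-06). Cells that do not express CAMK2A keep the gene and are counted too. *Esr1*, the estrogen receptor gene whose hormone-binding part is also fused to Cre in the transgene, was at 3.96, 3.32, 2.67 and 2.61 CPM in controls and 28.7, 32.3, 28.3 and 30.0 CPM in Rap 4 mice. It showed the largest rise among genes with a mean of at least 1 CPM (log2FC 3.25, edgeR adjusted p = 1.24e-08). Whether its reads come from the transgene was not tested. *Arsi*, an arylsulfatase gene 7056 bases from *Camk2a* on chromosome 18, was at 1.43, 2.00, 1.37 and 1.69 CPM in controls and 9.05, 9.13, 6.78 and 8.38 CPM in Rap 4 mice (log2FC 2.36, edgeR adjusted p = 5.06e-06). Without rapamycin on day 13, *Esr1* and *Arsi* differed from control by log2FC 3.46 and 3.12. *Camk2a* itself was at 1561 to 2173 CPM in controls and 1464 to 2148 CPM in Rap 4 mice, ranges that overlap. Of 27 tested genes of the mTOR pathway, *Tsc1* fell and *Prr5*, a subunit of mTORC2, rose, and the other 25 did not pass the test. *Prr5* was at 2.31, 2.12, 2.64 and 2.24 CPM in controls and 3.09, 3.96, 3.00 and 3.53 CPM in Rap 4 mice (log2FC 0.55, edgeR adjusted p = 0.0461), and its call was lost with any 1 of the 8 mice left out, with edgeR adjusted p up to 0.13.

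**Figure D2:**
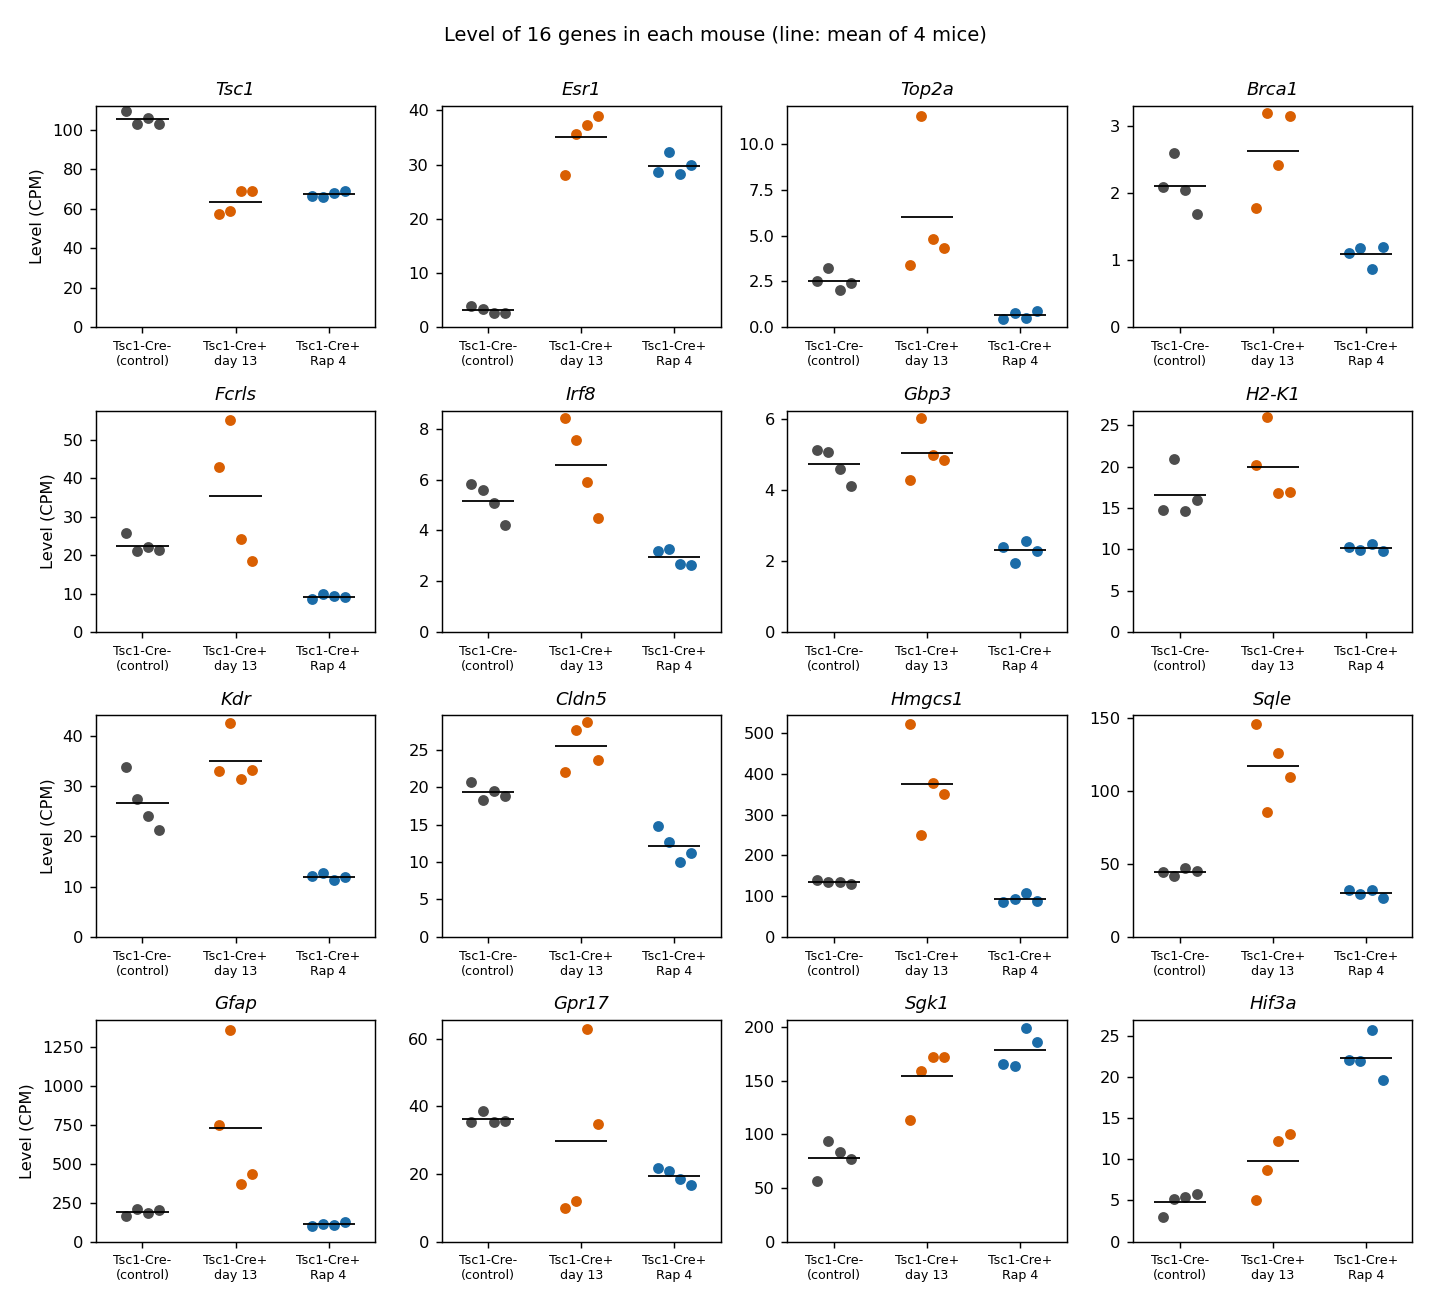
Level in CPM (vertical, from 0) of 16 genes in each control, day 13 and Rap 4 mouse, with points for mice A to D from left to right and a line at the mean of 4 mice. In each panel all 4 Rap 4 points lie outside the range of the 4 control points.

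Of the cell division genes, 7 of 83 fell in Rap 4 mice and none rose, and *Top2a* fell the most. *Top2a* (chr11:98992943-99024189) encodes topoisomerase II alpha, which untangles chromosomes before mitosis. It was at 2.53, 3.24, 2.01 and 2.41 CPM in control mice A to D and at 0.451, 0.788, 0.478 and 0.893 CPM in Rap 4 mice A to D. Every Rap 4 mouse had less than the lowest control, and the log2FC was -1.93 (SE 0.233, edgeR adjusted p = 0.00119). On day 13 without rapamycin the 4 mice had 3.41, 11.5, 4.83 and 4.34 CPM, all above the controls (log2FC 1.22, edgeR adjusted p = 0.0305).

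Of 48 tested mitosis genes, 5 fell and none rose, with 35 log2FC values below 0 and a median of -0.20. Beside *Top2a*, the genes that fell were the spindle checkpoint kinase *Bub1b* (-1.67), *Iqgap3* (-1.33), the cytokinesis factor *Ect2* (-1.02) and the kinetochore protein *Cenpf* (-0.91), with edgeR adjusted p-values from 0.0266 to 0.0413. These are genes of low level. *Bub1b* was at 0.230 to 0.409 CPM in controls and 0.0609 to 0.139 CPM in Rap 4 mice, and *Cenpf* at 1.87 to 2.97 and 0.971 to 1.61 CPM, without overlap. *Top2a* alone passed with each of the 8 mice left out in turn. The calls were lost for *Bub1b* without any control mouse or any Rap 4 mouse (edgeR adjusted p up to 0.114), for *Iqgap3* without control mouse B, C or D or Rap 4 mouse A, B or D (edgeR adjusted p up to 0.125), for *Ect2* without control mouse A, B or D or Rap 4 mouse A, B or D (edgeR adjusted p up to 0.0962) and for *Cenpf* without control mouse A, B or D or Rap 4 mouse A or C (edgeR adjusted p up to 0.073). *Mki67*, the proliferation marker, was at 12.1, 13.5, 11 and 14.7 CPM in controls and 10.8, 9.78, 8.36 and 9.76 CPM in Rap 4 mice, which do not overlap, and had a log2FC of -0.41 (edgeR adjusted p = 0.0511). Summed over the mitosis list, the levels overlapped between controls (152 to 176 CPM) and Rap 4 mice (153 to 188 CPM), with Rap 4 mouse D above every control. On day 13, 16 of 52 tested mitosis genes were higher than in controls and none was lower.

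Of 35 tested DNA replication genes, 2 fell and none rose, and the median log2FC was -0.05. *Uhrf1*, which maintains DNA methylation behind the replication fork, was at 1.19, 1.82, 1.76 and 1.26 CPM in controls and 0.486, 0.555, 0.686 and 0.934 CPM in Rap 4 mice (log2FC -1.16, edgeR adjusted p = 0.0175). Its call was lost without control mouse B or C or Rap 4 mouse A or B (edgeR adjusted p up to 0.0626). *Brca1*, a DNA repair gene, was at 2.09, 2.60, 2.04 and 1.69 CPM in controls and 1.11, 1.18, 0.874 and 1.2 CPM in Rap 4 mice (log2FC -0.95, edgeR adjusted p = 0.0126) and passed with each mouse left out. The replicative helicase subunits *Mcm2* and *Mcm3* had log2FC values of -0.27 and -0.19 (edgeR adjusted p = 0.215 and 0.561). Among 18 tested regulators of the cell cycle, *Cdkn1a*, which encodes the cell cycle inhibitor p21, was the only one to pass the test. It was at 0.825, 1.27, 1.01 and 0.958 CPM in controls, 3.33, 3.33, 3.87 and 2.68 CPM in Rap 4 mice and 29.3, 16.9, 3.04 and 4.34 CPM on day 13. All Rap 4 mice lay above all controls (log2FC 1.70, edgeR adjusted p = 0.000381), and 2 day 13 mice lay far above both groups. The call held with each mouse left out but not in the fit of all 24 mice (edgeR adjusted p = 0.147). The cyclins D *Ccnd1* and *Ccnd2* had log2FC values of -0.17 and -0.18 (edgeR adjusted p = 0.342 and 0.108). Of 20 genes of adult neurogenesis, *Nes*, which encodes the intermediate filament nestin of neural progenitors and of some vessel cells, fell, being at 9.04 to 11.9 CPM in controls and 5.00 to 6.68 CPM in Rap 4 mice (log2FC -0.77, edgeR adjusted p = 0.00377), a call lost in the fit of all 24 mice (edgeR adjusted p = 0.242).

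Microglia, the resident macrophages of the brain, are recognised by a set of genes that they express at rest. Of 36 tested genes of this set, 16 were lower in Rap 4 mice than in controls, none was higher, and 34 of the log2FC values were below 0, with a median of -0.50, where 1.04% of all tested genes fell. The summed level of the 36 genes was 621 to 733 CPM in controls and 489 to 548 CPM in Rap 4 mice, without overlap. In untreated *Tsc1-Cre+* mice it was 555 to 649 CPM on day 4, 585 to 606 CPM on day 6, 582 to 706 CPM on day 8 and 674 to 1027 CPM on day 13, so that day 6 lay below the controls too. In tissue RNA, fewer cells of a type and less RNA per cell cannot be told apart.

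*Fcrls* (chr3:87250758-87263738), a surface receptor-like protein of mouse microglia, was at 25.7, 21, 22.1 and 21.4 CPM in control mice A to D and at 8.67, 9.85, 9.36 and 9.07 CPM in Rap 4 mice A to D. The Rap 4 values lay within a narrow range below all controls, at a log2FC of -1.28 (SE 0.0801, edgeR adjusted p = 5.06e-06). The fructose transporter *Slc2a5* was at 4.58, 4.25, 3.41 and 3.98 CPM in controls and 2.08, 2.97, 2.08 and 1.77 CPM in Rap 4 mice (log2FC -0.86, edgeR adjusted p = 0.0144). *Irf8*, a transcription factor that microglia need to develop, was at 5.81, 5.59, 5.08 and 4.21 and 3.19, 3.26, 2.66 and 2.64 CPM (log2FC -0.82, edgeR adjusted p = 0.00556), and *Gm20388* is annotated over it on the same strand. The signalling adaptor *Tyrobp* (-0.70), its partner receptor *Trem2* (-0.66), *Olfml3* (-0.68), *Aif1*, which encodes IBA1 (-0.67), *Ly86* (-0.67), *Laptm5* (-0.67) and the integrin *Itgam* (-0.70) had log2FC values of similar size. None of these overlapped between the groups, and their edgeR adjusted p-values ranged from 0.00259 to 0.0309. The chemokine receptor *Cx3cr1* was at 53.3, 47.8, 45 and 47.6 CPM in controls and 34.3, 36.5, 29.7 and 32.9 CPM in Rap 4 mice (log2FC -0.54, edgeR adjusted p = 0.00145). *P2ry12* and *Csf1r*, a purinergic receptor and the receptor for the survival factor CSF1, were also separate, at 29.5 to 35 against 23.2 to 24.4 CPM and 77.9 to 95.6 against 55.1 to 69.3 CPM, but their log2FC values of -0.47 and -0.43 were within the 0.5 threshold (edgeR adjusted p = 0.00155 and 0.00731).

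Of the 16 calls, 11 held with each mouse left out, and the fewest that held were 11, without Rap 4 mouse C. The call on *Itgam* was lost without control mouse A, B or D or Rap 4 mouse A or C (edgeR adjusted p up to 0.0923), that on *P2ry13* without control mouse A or Rap 4 mouse C (log2FC -0.49), that on *Cx3cr1* without control mouse A or Rap 4 mouse C (log2FC -0.49), that on *Siglech* without Rap 4 mouse C (log2FC -0.50) and that on *Unc93b1* without control mouse A or B or Rap 4 mouse A or C (log2FC -0.48). In the fit of all 24 mice 7 of the 16 calls held, among them *Fcrls* and *Irf8*. Of 22 tested genes of activated microglia, 2 fell and none rose, with a median log2FC of -0.21. The pattern receptor *Clec7a* was at 0.550 to 1.13 CPM in controls and 0.215 to 0.374 CPM in Rap 4 mice (log2FC -1.49, edgeR adjusted p = 0.017), and the tetraspanin *Cd63* at 9.71 to 14.1 and 7.07 to 8.45 CPM (log2FC -0.58, edgeR adjusted p = 0.0181). These calls were lost for *Clec7a* without control mouse B or Rap 4 mouse B (edgeR adjusted p up to 0.065) and for *Cd63* without control mouse B or Rap 4 mouse A or B (edgeR adjusted p up to 0.055 or log2FC -0.47). *Gpnmb*, at 49.9 to 107 CPM on day 13, was at 5.47 to 6.64 CPM in controls and 3.83 to 6.3 CPM in Rap 4 mice (edgeR adjusted p = 0.204). *Cst7*, a marker of phagocytic microglia, was at 0.634 to 1.19 and 0.833 to 0.999 CPM, ranges that overlap. Of 8 tested genes of other macrophages and lymphocytes none passed the test, and the 18 genes of that list summed to 19.2 to 25 CPM in controls and 16.8 to 18 CPM in Rap 4 mice. *Mrc1* and *Cd163*, markers of perivascular macrophages, had log2FC values of -0.53 and 0.02 (edgeR adjusted p = 0.183 and 0.971).

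Interferons are cytokines that switch on a broad set of antiviral genes. Of 61 tested interferon-inducible genes in 2 lists, 15 fell in Rap 4 mice, none rose, and 59 had log2FC values below 0, with a median of -0.44. The 17 tested GTPases, proteins that attack vacuoles of microbes, had 6 falls and a median of -0.58, and 44 other interferon genes had 9 falls and a median of -0.37. The summed level of the 19 listed GTPases was 43.3 to 56.2 CPM in controls, 29.0 to 35.4 CPM in Rap 4 mice and 41.2 to 53.8 CPM on day 13. Untreated *Tsc1-Cre+* mice on day 4 had 26.5 to 41 CPM, overlapping the Rap 4 mice and below all controls, and those on days 6 and 8 had 33.6 to 44.2 and 41.6 to 52.3 CPM. The other interferon genes summed to 205 to 232 CPM in controls, 178 to 186 CPM in Rap 4 mice, 177 to 224 CPM on day 4 and 194 to 206 CPM on day 6. Low sums were thus not found in Rap 4 mice alone.

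*Gbp4* was at 5.21, 3.5, 3.30 and 2.09 CPM in control mice A to D and 0.728, 1.40, 1.04 and 1.24 CPM in Rap 4 mice A to D (log2FC -1.65, SE 0.261, edgeR adjusted p = 0.00475). It overlaps *Gbp8* and *Gbp9* on its strand, and counting may have divided reads among the 3 genes. *Gbp3*, whose promoter is printed above, was at 5.14, 5.09, 4.59 and 4.12 CPM in controls and 2.39, 1.93, 2.58 and 2.29 CPM in Rap 4 mice (log2FC -1.04, edgeR adjusted p = 0.00136). On day 13 *Gbp3* was at 4.29, 6.04, 5.00 and 4.84 CPM, overlapping the control range, whereas *Gbp4* was at 1.23, 1.13, 1.93 and 1.72 CPM, below all controls (log2FC -1.27, edgeR adjusted p = 0.0124). *Gbp9* (-0.82), *Gbp2b* (-0.80), *Gbp5* (-0.59) and *Tgtp2* (-1.80) also fell, with edgeR adjusted p-values from 0.0144 to 0.0437. Near-identical copies exist for several of these genes, and the handling of reads that align to more than one place is not given in the sources used here. *Gbp3*, *Gbp4* and *Gbp9* passed with each mouse left out. The calls were lost for *Gbp2b* without control mouse A, B or C or Rap 4 mouse A, B or C (edgeR adjusted p up to 0.0873), for *Gbp5* without any control mouse or Rap 4 mouse A, B or C (edgeR adjusted p up to 0.108) and for *Tgtp2* without any control mouse or Rap 4 mouse B, C or D (edgeR adjusted p up to 0.115).

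Among the other interferon genes, *Ifi44* was at 1.16, 0.667, 0.928 and 0.805 CPM in controls and 0.139, 0.322, 0.125 and 0.203 CPM in Rap 4 mice (log2FC -2.10, edgeR adjusted p = 0.00389). The antiviral RNA sensors *Oas1a* and *Oasl2*, the first printed above, had log2FC values of -1.22 and -0.94 (edgeR adjusted p = 0.0408 and 0.0158). *Oas1a* was at 0.402 to 0.692 CPM in controls and 0.208 to 0.333 CPM in Rap 4 mice, and *Oasl2* at 2.01 to 2.86 and 0.874 to 1.46 CPM, without overlap. The secreted glycoprotein *Lgals3bp* (-0.82), the membrane protein *Ifitm3*, which blocks virus entry (-0.86), *Nlrc5*, the activator of MHC class I genes (-0.88), *Sp100* (-0.74), *Ifi27* (-0.60) and *Ifi203* (-0.55) fell too, with edgeR adjusted p-values from 0.00403 to 0.0401. *Ifi44* and *Lgals3bp* passed with each mouse left out. The other calls were lost for *Oas1a* without control mouse A, B or C or Rap 4 mouse A, B or D (edgeR adjusted p up to 0.117), for *Oasl2* without control mouse C (edgeR adjusted p up to 0.0536), for *Nlrc5* without any control mouse or any Rap 4 mouse (edgeR adjusted p up to 0.12), for *Ifitm3* without Rap 4 mouse B (edgeR adjusted p up to 0.0561), for *Sp100* without control mouse A, B or C or Rap 4 mouse A, B or C (edgeR adjusted p up to 0.0898), for *Ifi203* without any control mouse or Rap 4 mouse A or C (edgeR adjusted p up to 0.0726 or log2FC -0.45) and for *Ifi27* without control mouse A, B or D or Rap 4 mouse A, C or D (edgeR adjusted p up to 0.0954 or log2FC -0.49). *Ifit1* and *Ifit2*, which bind viral RNA, had log2FC values of -0.27 and -0.35 (edgeR adjusted p = 0.413 and 0.0877).

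Of 20 tested genes of antigen presentation, 4 fell, none rose and all 20 log2FC values were below 0, with a median of -0.47. *H2-K1*, a heavy chain of MHC class I, was at 14.7, 21, 14.7 and 15.9 CPM in controls and 10.2, 9.90, 10.7 and 9.80 CPM in Rap 4 mice (log2FC -0.71, edgeR adjusted p = 0.00395). *B2m*, the light chain of all MHC class I molecules, was at 23.6, 29.2, 22.5 and 24.6 CPM in controls and 17.6, 16.1, 16.8 and 19.1 CPM in Rap 4 mice, below every control (log2FC -0.52, edgeR adjusted p = 0.00556). The MHC gene *H2-Q4* (-1.04) and the immunoproteasome subunit *Psmb8* (-0.77) fell as well (edgeR adjusted p = 0.0265 and 0.0256). Calls were lost for *B2m* without control mouse B or Rap 4 mouse B (log2FC -0.44), for *H2-Q4* without control mouse A or B or any Rap 4 mouse (edgeR adjusted p up to 0.0674) and for *Psmb8* without control mouse A, B or D or Rap 4 mouse A, C or D (edgeR adjusted p up to 0.0751). The summed level of the list was 155 to 185 CPM in controls, 126 to 134 CPM in Rap 4 mice, 128 to 148 CPM on day 4 and 136 to 156 CPM on day 6. On day 13, no gene of this list and none of 46 other interferon genes passed the test, and 1 GTPase was higher and 4 were lower than in controls. Of these 15 interferon and 4 antigen presentation calls, 5 and 3 held in the fit of all 24 mice, and 9 and 3 held with all libraries thinned to the smallest total.

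**Figure D3:**
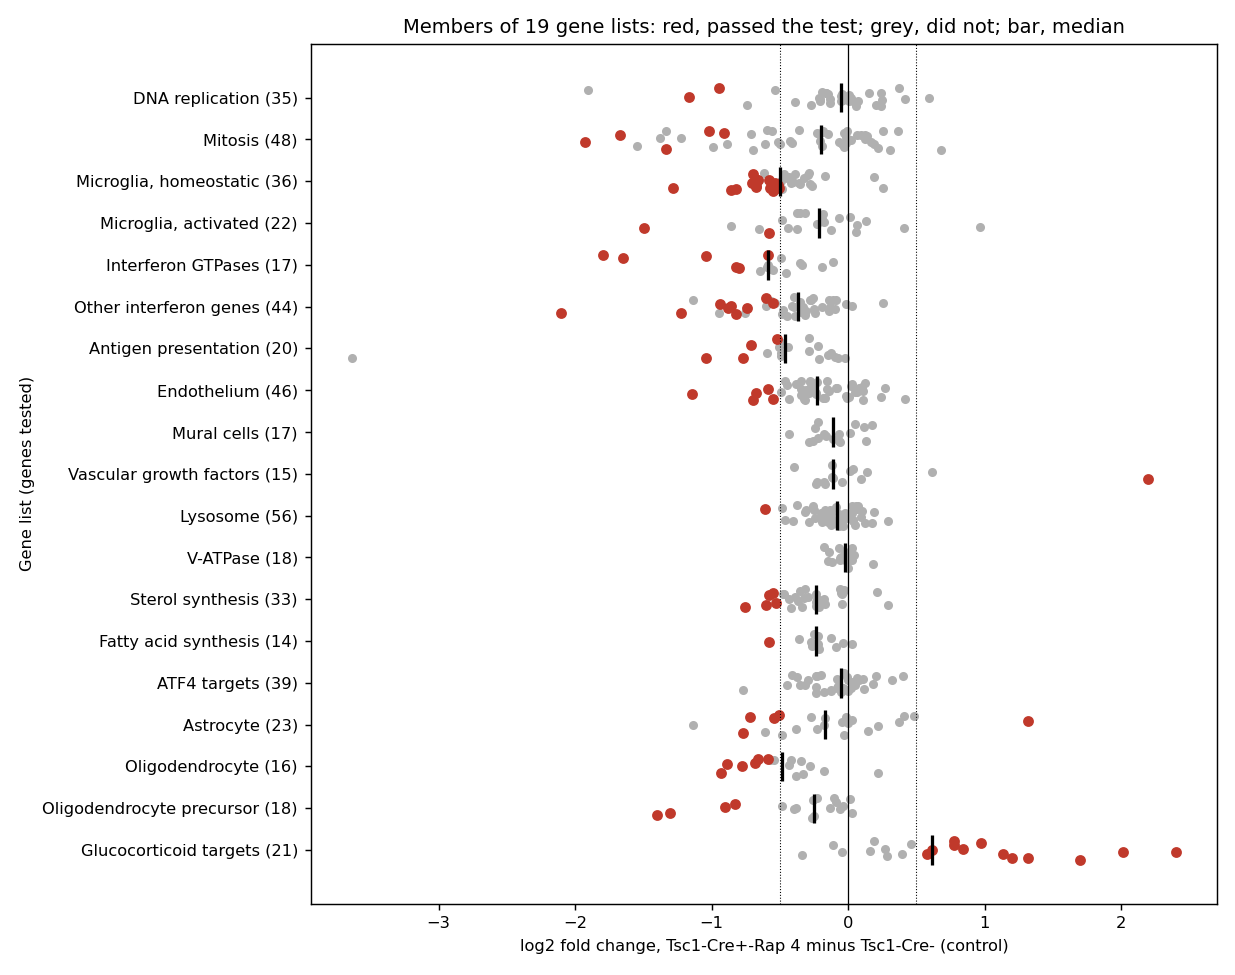
Log2FC (Rap 4 minus control, horizontal) of each tested member of 19 gene lists, with the number tested in brackets. Red points passed the test, grey points did not, bars mark the median and dotted lines the 0.5 threshold. In every list except the glucocorticoid list, more members lie left of 0 than right of it. Nearly all members lie left in the homeostatic microglia, interferon, antigen presentation, oligodendrocyte, oligodendrocyte precursor, sterol and fatty acid lists. Members of the glucocorticoid list lie mostly right of 0.

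Endothelial cells line the vessels of the brain and form its barrier. Of 46 tested endothelial genes, 5 fell, none rose and 33 had log2FC values below 0, with a median of -0.23. *Kdr* (chr5:75932827-75978458), the main receptor through which VEGFA drives vessel growth, was at 33.8, 27.3, 24 and 21.2 CPM in control mice A to D and 12.2, 12.7, 11.3 and 11.9 CPM in Rap 4 mice A to D. The groups did not overlap, and the log2FC was -1.14 (SE 0.119, edgeR adjusted p = 0.000381). On day 13 it was at 32.9, 42.5, 31.4 and 33.1 CPM (log2FC 0.38 against control, edgeR adjusted p = 0.0833). The TGF-beta co-receptor *Eng* was at 12.6, 9.82, 9.37 and 9.87 CPM in controls and 5.86, 6.3, 5.85 and 7.55 CPM in Rap 4 mice (log2FC -0.70, edgeR adjusted p = 0.00642), and *Cldn5*, a tight junction protein of the blood-brain barrier, at 20.7, 18.3, 19.5 and 18.8 and 14.8, 12.6, 9.94 and 11.2 CPM (log2FC -0.68, edgeR adjusted p = 0.00389). Both lay below all controls in all 4 Rap 4 mice. The transcription factor *Fli1* (-0.58) and the thyroid hormone transporter *Slco1c1* (-0.55), which astrocytes express as well, fell too (edgeR adjusted p = 0.0352 and 0.00542).

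*Kdr*, *Eng* and *Cldn5* passed with each mouse left out, and calls were lost for *Fli1* without control mouse A, B or C or Rap 4 mouse B or C (edgeR adjusted p up to 0.0889 or log2FC -0.48) and for *Slco1c1* without control mouse B (log2FC -0.46). Pan-endothelial *Pecam1* and *Cdh5* were at 16.4 to 19.7 against 14.6 to 16.4 CPM and 6.95 to 10.5 against 7.47 to 9.58 CPM (log2FC values -0.23 and -0.18, edgeR adjusted p = 0.125 and 0.505). The summed level of all 46 genes was 939 to 1054 CPM in controls, 848 to 898 CPM in Rap 4 mice and 1150 to 1471 CPM on day 13. Of 17 tested genes of mural cells, which wrap small vessels, and of 10 fibroblast genes none passed the test. The pericyte genes *Pdgfrb* and *Rgs5* were below all controls in all Rap 4 mice, by log2FC values of -0.43 and -0.24 within the 0.5 threshold (edgeR adjusted p = 0.0022 and 0.018). Among 15 vascular growth factors and hypoxia genes, *Hif3a* alone passed the test. *Hif3a* (chr7:17031507-17062427), a hypoxia-inducible factor that glucocorticoids are also known to induce, was at 2.95, 5.24, 5.44 and 5.82 CPM in controls, 22.1, 21.9, 25.7 and 19.7 CPM in Rap 4 mice and 5.01, 8.65, 12.3 and 13 CPM on day 13. Rap 4 mice were above both other groups, at log2FC 2.20 against control and 1.21 against day 13 (edgeR adjusted p = 2.66e-05 and 0.00691). *4833404L02Rik*, which lies over *Hif3a* on the opposite strand, rose as well (log2FC 1.82), and as the strand setting of the counting is not given in the sources used here, the 2 cannot be separated. *Vegfa* was at 46.3, 45.9, 44.3 and 39.7 CPM in controls, 33.7, 32, 28.8 and 39.2 CPM in Rap 4 mice and 125, 141, 71.6 and 59.9 CPM on day 13, and its log2FC between Rap 4 and control was -0.40 (edgeR adjusted p = 0.0208).

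Few lysosomal genes differed between Rap 4 and control mice. None of 18 tested subunits of the V-ATPase, the proton pump that acidifies lysosomes, passed the test, and their median log2FC was -0.02. On day 13, 12 of the 18 were higher than in controls and their median was 0.60. The pump subunit *Atp6v0a1* was at 449, 413, 421 and 385 CPM in controls, 427, 430.3, 398 and 399.5 CPM in Rap 4 mice and 589, 572, 578 and 576 CPM on day 13. Of 56 tested lysosome and autophagy genes, 1 fell and none rose in Rap 4 mice, against 16 higher and 1 lower on day 13, with medians of -0.08 and 0.36. The gene that fell, *Plin2*, encodes a lipid droplet coat protein and was put on the list as a target of lysosomal transcription factors. It was at 4.71, 5.09, 3.68 and 4.83 CPM in controls and 2.78, 2.74, 3.83 and 2.60 CPM in Rap 4 mice, which overlap in Rap 4 mouse C (log2FC -0.61, edgeR adjusted p = 0.0442), and its call was lost without control mouse A, B or D or Rap 4 mouse A, B or D (edgeR adjusted p up to 0.116). *Lamp1* and *Lamp2*, the major membrane proteins of lysosomes, were at 143 to 150.0 against 126 to 132 CPM and 71.3 to 85.5 against 69.3 to 76.8 CPM (log2FC values -0.17 and -0.08, edgeR adjusted p = 0.0404 and 0.527). The summed level of the 57 genes was 4391 to 4540 CPM in controls, 4053 to 4337 CPM in Rap 4 mice and 5319 to 6304 CPM on day 13. By this sum every Rap 4 mouse was below every control.

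The brain makes its own cholesterol, and mTORC1 promotes the transcription of the enzymes. Of 33 tested sterol genes, 5 fell, none rose and 31 had log2FC values below 0, with a median of -0.23. On day 13 without rapamycin, 19 were higher and 1 lower, with a median of 0.72. The summed level of the 33 genes was 1403 to 1474 CPM in controls, 1211 to 1285 CPM in Rap 4 mice and 1837 to 2887 CPM on day 13.

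*Hmgcs1*, the synthase at the head of the pathway, whose promoter is printed above, was at 139, 134, 134 and 130.4 CPM in control mice A to D, 86.1, 92.7, 108 and 87 CPM in Rap 4 mice A to D and 522, 249.9, 377 and 350.4 CPM on day 13. Rap 4 mice lay below every control and day 13 mice above (log2FC values -0.53 and 1.46, edgeR adjusted p = 0.00122 and 0.00109). The later enzymes *Msmo1* (-0.60), *Sqle* (-0.58) and *Mvd* (-0.55) fell too, with edgeR adjusted p-values from 0.00107 to 0.013. *Msmo1* and *Sqle* passed with each mouse left out, while the calls on *Hmgcs1* and *Mvd* were lost without Rap 4 mouse A or D (log2FC -0.49) and without Rap 4 mouse D (log2FC -0.48). Of 14 fatty acid synthesis genes, *Scd1*, the desaturase that makes oleate, fell, being at 124 to 157 CPM in controls and 81.9 to 114 CPM in Rap 4 mice (log2FC -0.58, edgeR adjusted p = 0.00556). Fatty acid synthase *Fasn* was at 431 to 461 CPM in controls and 355 to 408 CPM in Rap 4 mice (log2FC -0.22, edgeR adjusted p = 0.0384).

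ATF4 is a transcription factor of amino acid supply that mTORC1 activates. None of its 39 tested target genes passed the test in Rap 4 mice, with a median log2FC of -0.05, whereas 36 of 40 were higher on day 13, with a median of 1.54. *Chac1*, a glutathione-degrading enzyme, was at 1.98, 1.75, 2.30 and 2.32 CPM in controls, 1.87, 2.49, 1.66 and 1.22 CPM in Rap 4 mice and 31, 66.4, 22.5 and 25.2 CPM on day 13. The pseudokinase *Trib3* was at 0.153 to 0.334, 0.284 to 0.416 and 2.24 to 13.2 CPM in the same order. For both genes all 4 day 13 mice lay above the other 8, and control and Rap 4 ranges overlapped.

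**Figure D4:**
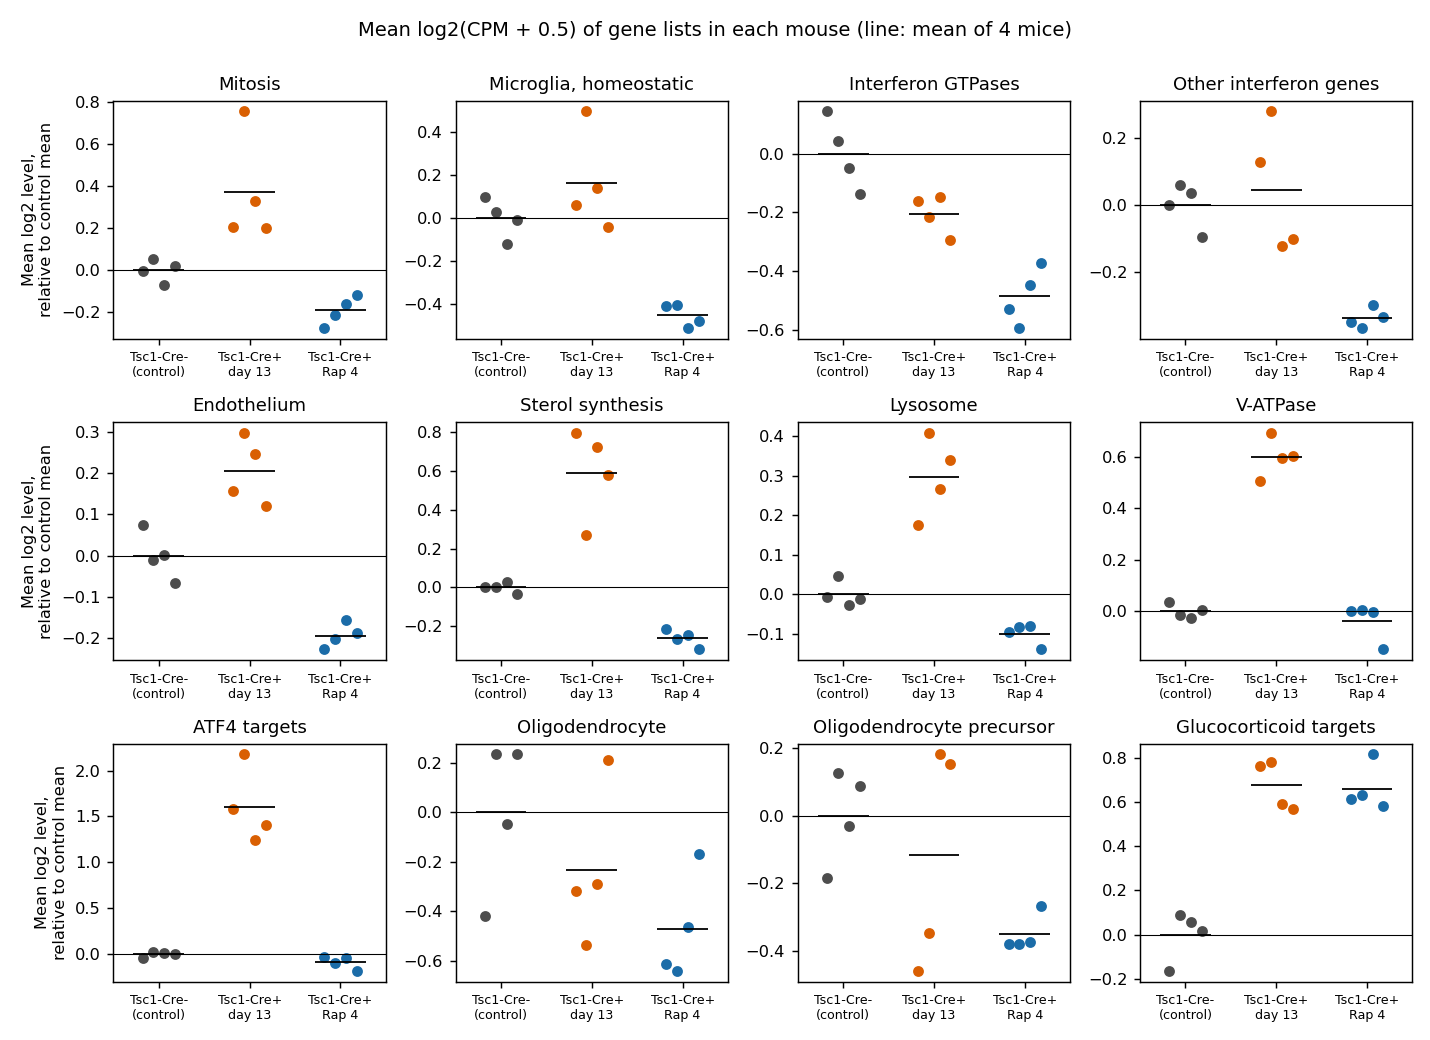
Mean log2(CPM + 0.5) over the tested members of 12 gene lists in each mouse (vertical), minus the mean of the 4 controls, for control, day 13 and Rap 4 mice. In the homeostatic microglia, interferon, mitosis, endothelium, sterol, lysosome, oligodendrocyte precursor and glucocorticoid panels the 4 Rap 4 points do not overlap the control points, and in the ATF4 and V-ATPase panels the day 13 points stand apart. For mitosis the sum of CPM, which the abundant members dominate, did overlap.

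Glucocorticoids are adrenal stress hormones that act through a nuclear receptor. Of 21 tested genes that they induce, 12 rose, none fell and 3 had log2FC values below 0, with a median of 0.62. On day 13 without rapamycin 11 were higher and 1 lower, with a median of 0.68. The summed level was 1373 to 1433 CPM in controls, 1720 to 1801 CPM in Rap 4 mice and 1750 to 1916 CPM on day 13, above the controls in both. Of the other untreated *Tsc1-Cre+* groups, day 4 lay above the controls (1466 to 1700 CPM), and day 6 (1360 to 1501 CPM) and day 8 (1371 to 1454 CPM) overlapped them.

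The stress kinase *Map3k6* (chr4:133240818-133252929) was at 0.752, 1.10, 1.48 and 0.824 CPM in control mice A to D and 5.13, 5.89, 7.18 and 3.94 CPM in Rap 4 mice A to D (log2FC 2.40, SE 0.229, edgeR adjusted p = 0.000218). *Plin4*, a lipid droplet protein, was at 11.7, 19.8, 20 and 17.5 CPM in controls and 64.3, 64.1, 92.8 and 56.9 CPM in Rap 4 mice (log2FC 2.01, edgeR adjusted p = 7.26e-05). *Sgk1*, a kinase that regulates ion channels, was at 56.9, 93.5, 83.2 and 77.2 CPM in controls, 165, 164, 199 and 186 CPM in Rap 4 mice and 113, 159, 172 and 172 CPM on day 13 (log2FC 1.20 between Rap 4 and control, edgeR adjusted p = 0.000314). In each of these 3 genes all Rap 4 mice lay above all controls. *Fkbp5*, a co-chaperone of the glucocorticoid receptor, was at 51.4, 51.1, 44.7 and 48.4 CPM in controls and 76.7, 74.1, 81.5 and 67.3 CPM in Rap 4 mice (log2FC 0.62, edgeR adjusted p = 0.000381), and it was at 82.1, 87.7, 61.1 and 69.2 CPM on day 13. *Tsc22d3*, which encodes the mediator GILZ (0.77), *Arrdc2* (1.13), the sulfotransferase *Sult1a1* (0.98), *Pdk4*, which spares glucose (0.84), the NF-kappaB inhibitor *Nfkbia* (0.77) and the transcription factor *Zbtb16* (0.58) rose with edgeR adjusted p-values from 0.000381 to 0.00556. *Arrdc2*, *Sult1a1*, *Pdk4* and *Zbtb16* were also higher than on day 13, with log2FC values of 0.66, 0.85, 1.09 and 0.61 (edgeR adjusted p = 0.0381, 0.0104, 0.0359 and 0.00134). Of the 21 tested genes of the list, 4 were higher than on day 13 and 5 were lower, with a median log2FC of 0.08. Over all tested genes these shares were 9.94% and 11.2%.

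The iron-binding protein *Lcn2*, also a marker of reactive astrocytes, was at 0.220 to 0.334 CPM in controls and 0.406 to 0.853 CPM in Rap 4 mice (log2FC 1.32, edgeR adjusted p = 0.0314), a call lost without any control mouse or Rap 4 mouse A, B or C (edgeR adjusted p up to 0.0907). The other 11 calls held with each mouse left out, and 9 of the 12 held in the fit of all 24 mice. The 12 include *Cdkn1a*, which is on this list as well as on that of cell cycle regulators. Of 17 clock genes none passed the test, and *Per1* and *Per2* had log2FC values of 0.19 and 0.01 (edgeR adjusted p = 0.164 and 0.981). The time of day at which mice were taken is not given in the sources used here.

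Of 23 tested genes of astrocytes, 4 fell and *Lcn2* rose, and 15 had log2FC values below 0, with a median of -0.17. The summed level of the list was 6088 to 6605 CPM in controls and 5971 to 6156 CPM in Rap 4 mice, ranges that overlap. *Gfap*, the intermediate filament that marks reactive astrocytes, was at 162, 209, 186 and 201 CPM in control mice A to D, 102, 114, 104 and 124 CPM in Rap 4 mice A to D and 751, 1356, 372 and 437 CPM on day 13. Rap 4 mice lay below every control and day 13 mice above (log2FC values -0.77 and 1.91, edgeR adjusted p = 0.000381 and 0.00466). The water channel *Aqp4* was at 165, 167, 168 and 168 CPM in controls and 94.6, 94.4, 104 and 113 CPM in Rap 4 mice (log2FC -0.72, edgeR adjusted p = 4.81e-05). The calcium-binding protein *S100b* (-0.54) and the sphingosine receptor *S1pr3* (-0.51) fell as well (edgeR adjusted p = 0.00107 and 0.0108), with calls lost without control mouse D (log2FC -0.48) and without control mouse C or Rap 4 mouse A or C (log2FC -0.48). *Vim*, another filament of reactive astrocytes, was at 20.2 to 27.4 CPM in controls and 16.7 to 22.1 CPM in Rap 4 mice, ranges that overlap, and at 33.6 to 306 CPM on day 13. *Gfap* and *Aqp4* passed with each mouse left out but not in the fit of all 24 mice (edgeR adjusted p = 0.495 and 0.0569).

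Oligodendrocytes form the myelin of the brain. Of 16 tested oligodendrocyte genes, 6 fell in Rap 4 mice, none rose and 15 had log2FC values below 0, with a median of -0.49. The gap junction protein *Gjb1* was at 8.45, 11.3, 9.64 and 12.3 CPM in controls and 6.24, 4.35, 4.74 and 6.62 CPM in Rap 4 mice (log2FC -0.93, edgeR adjusted p = 0.00542). The groups did not overlap, and control mouse A was the lowest of the controls. *Cnp* (-0.66), *Opalin* (-0.77), *Ugt8a* (-0.68) and *Mog* (-0.59) also passed the test, with edgeR adjusted p-values from 0.0095 to 0.0354, and for *Opalin*, *Ugt8a* and *Mog* the groups overlapped. Calls were lost for *Opalin* without control mouse B or D or Rap 4 mouse A or B (edgeR adjusted p up to 0.0584), for *Ugt8a* without control mouse B or D or Rap 4 mouse A or B (edgeR adjusted p up to 0.0606) and for *Mog* without control mouse B, C or D or Rap 4 mouse A or B (edgeR adjusted p up to 0.11 or log2FC -0.50). *Mbp*, which encodes myelin basic protein, was at 1234 to 1867 CPM in controls and 1134 to 1550 CPM in Rap 4 mice, ranges that overlap. By the sum of the 16 genes, controls had 3649 to 5706 CPM and Rap 4 mice 3216 to 4391 CPM, which also overlap. When *Xist* entered the model as a covariate, 4 of the 6 calls held, and in the fit of all 24 mice 1 held.

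Of 18 tested genes of oligodendrocyte precursors and newly formed oligodendrocytes, 4 fell and none rose. *Gpr17*, a receptor of cells on their way to myelination, was at 35.2, 38.6, 35.3 and 35.7 CPM in controls and 21.7, 20.8, 18.5 and 16.7 CPM in Rap 4 mice (log2FC -0.90, SE 0.0775, edgeR adjusted p = 7.48e-05). *Enpp6*, an enzyme of newly formed oligodendrocytes, was at 9.63, 16.1, 12.1 and 15.5 and 3.61, 5.32, 4.87 and 7.51 CPM (log2FC -1.31, edgeR adjusted p = 0.00385), and the lineage transcription factor *Sox10* at 19.9, 33.7, 28 and 30.7 and 13.9, 15.5, 14.2 and 19.6 CPM (log2FC -0.83, edgeR adjusted p = 0.00838). In these 3 genes no Rap 4 mouse reached the lowest control. In the fit of all 24 mice the calls on *Enpp6* and *Sox10* held, and those on *Gpr17* and *Bmp4* were lost (edgeR adjusted p = 0.261 and 0.275). The growth factor *Bmp4* was at 1.05 to 1.93 CPM in controls and 0.233 to 0.895 CPM in Rap 4 mice (log2FC -1.40, edgeR adjusted p = 0.0423), a call lost without any control mouse or Rap 4 mouse A, B or D (edgeR adjusted p up to 0.128). *Pdgfra* and *Cspg4*, which mark the dividing precursors, had log2FC values of 0.03 and -0.06 (edgeR adjusted p = 0.867 and 0.568), with ranges of 70.2 to 75.8 against 66.9 to 83.6 CPM and 35.7 to 38.5 against 34.3 to 36.7 CPM. On day 13 no gene of the oligodendrocyte and precursor lists passed the test. The 18 precursor genes summed to 924 to 1010 CPM in controls and 771 to 849 CPM in Rap 4 mice. Without rapamycin they summed to 890 to 961, 860 to 927, 852 to 932 and 864 to 1095 CPM on days 4, 6, 8 and 13. The 16 oligodendrocyte genes summed to 4079 to 4633, 3771 to 4098, 3577 to 4034 and 3659 to 5762 CPM on these days. Precursor sums below the lowest control were thus not found in Rap 4 mice alone.

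Few neuronal genes passed the test. Of 16 genes of hippocampal principal neurons, *Plk5*, a brain-expressed polo-like kinase, was the only one to pass the test. It was at 21.1, 23.9, 24.5 and 24 CPM in controls, 17.7, 18.5, 12.2 and 16.7 CPM in Rap 4 mice and 0.246, 0.179, 2.21 and 1.70 CPM on day 13. The log2FC against control was -0.52 in Rap 4 mice (edgeR adjusted p = 0.0193) and -4.62 on day 13 (edgeR adjusted p = 0.00195), and the former call was lost without control mouse B, C or D or Rap 4 mouse C (edgeR adjusted p up to 0.0607 or log2FC -0.41). None of 12 interneuron genes passed the test. Of 18 activity-regulated genes, *Npas4* and *Arc*, both induced by synaptic activity, fell. *Npas4* was at 11, 6.02, 7.66 and 6.69 CPM in controls, 3.30, 4.69, 4.60 and 5.01 CPM in Rap 4 mice and 15.7, 5.98, 67.3 and 4.03 CPM on day 13, and *Arc* at 91.7 to 127, 58.1 to 83.8 and 57.6 to 534 CPM in the same order. Their log2FC values between Rap 4 and control were -0.82 and -0.56 (edgeR adjusted p = 0.0266 and 0.0221), and the calls were lost without control mouse C or Rap 4 mouse A, B or C (edgeR adjusted p up to 0.0701) and without control mouse B or C or Rap 4 mouse A or C (edgeR adjusted p up to 0.0688 or log2FC -0.46). *Fos* was at 3.25 to 6.79 CPM in controls and 4.01 to 6.68 CPM in Rap 4 mice, which overlap.

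Haemoglobin transcripts are a measure of blood left in the tissue. Of 5 tested haemoglobin and erythroid genes *Hbb-bs* and *Hbb-bt* fell and none rose, and the 5 genes summed to 58.8 to 75.6 CPM in controls, 39.0 to 52.1 CPM in Rap 4 mice and 31.8 to 49.3 CPM on day 13. On days 4, 6 and 8 without rapamycin they summed to 35.5 to 45.1, 35.1 to 46.1 and 32.7 to 67.7 CPM. Sums below the lowest control were thus found in every *Tsc1-Cre+* group, though day 8 overlapped the controls. *Hbb-bs* was at 31.1, 30.4, 42.6 and 33.9 CPM in controls and 25.1, 17, 16.3 and 21.2 CPM in Rap 4 mice (log2FC -0.80, edgeR adjusted p = 0.00616), and the call on *Hbb-bt* was lost without control mouse B, C or D or any Rap 4 mouse (edgeR adjusted p up to 0.108). The part of blood content in the lower microglial, endothelial and interferon levels was not tested. None of 19 choroid plexus and ependyma genes passed the test, though all 19 log2FC values were below 0 (median -1.15), with the 2 mice of high *Ttr* named above. With *Ttr* as a covariate, in a fit added after the data were seen, 346 genes were DE. All 16 microglial, 5 endothelial, 5 sterol and 12 glucocorticoid calls held, and losses left 4 of 6 GTPase, 8 of 9 other interferon, 3 of 4 antigen presentation and 4 of 5 mitosis calls, without *Tgtp2*, *Gbp5*, *Oas1a*, *B2m* and *Bub1b*.

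The remaining large changes among genes with no overlap and a mean of at least 1 CPM in the higher group were outside these lists. *Bfsp2*, which encodes a beaded filament protein best known from the lens, was at 3.69, 4.57, 4.34 and 5.13 CPM in controls and 1.39, 1.38, 1.35 and 1.81 CPM in Rap 4 mice (log2FC -1.57, edgeR adjusted p = 0.00023). *Lag3*, an inhibitory receptor of lymphocytes that microglia also express, was at 1.85, 1.67, 1.08 and 1.38 and 0.798, 0.466, 0.333 and 0.670 CPM (log2FC -1.43, edgeR adjusted p = 0.0109). The potassium channel subunit *Kcne1l* (-1.14), the long noncoding RNA *A730036I17Rik* (-1.15) and *Gm47239* (-1.32), which lies over *Phldb1* on the opposite strand, fell too (edgeR adjusted p = 0.0103, 0.00675 and 0.0235), the last with a call lost without control mouse B or D or Rap 4 mouse A or B (edgeR adjusted p up to 0.0799). Among the rises, *Etnppl*, an astrocytic enzyme that breaks down phosphoethanolamine, was at 7.21, 8.94, 11.8 and 15.9 CPM in controls, 32.5, 25.9, 39.4 and 29.8 CPM in Rap 4 mice and 3.92, 2.17, 11.3 and 20 CPM on day 13 (log2FC 1.54 between Rap 4 and control, edgeR adjusted p = 0.00136), a call lost in the fit of all 24 mice (edgeR adjusted p = 0.158). The integrin *Itgad* was at 0.293, 0.484, 0.157 and 0.498 CPM in controls and 1.21, 1.47, 2.54 and 1.2 CPM in Rap 4 mice (log2FC 2.18, edgeR adjusted p = 0.00475), and *Gm44850*, on the opposite strand over it, rose by a log2FC of 2.85 (edgeR adjusted p = 0.000434). The glycosyltransferase *Galnt15* (1.65) and the spindle protein *Fam83d* (1.55) completed the 12 largest rises, with edgeR adjusted p-values of 0.00121 and 0.00122. *Fam83d* is not on the mitosis list, of which no gene rose.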

How the data were processed

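Hippocampal total RNA of 24 adult mice was sequenced from ribosome-depleted stranded libraries as paired reads of 76 nt. Raw read counts per gene were deposited by the authors, who trimmed reads with CutAdapt, aligned them with STAR 2.7.2b to GRCm38 (mm10) with GENCODE M24 and counted genes with featureCounts 1.6.4. The strand setting and the treatment of reads with several alignments are not given in the sources used here. Gene names came from GENCODE M21, which held 55144 of 55385 gene IDs, and promoters from RefSeq tables of GRCm38.p6. Overlaps with other genes were read from the same annotation.

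Groups follow the sample titles. Counts of the 8 mice were filtered with edgeR 4.0.16 (R 4.3.3), normalized by TMM and tested with the quasi-likelihood F-test, and p-values were adjusted by the Benjamini-Hochberg method over all tested genes. CPM values use TMM factors from all 24 mice. The level of a list is the sum of its members' CPM. Library totals were 28208561 to 61083014 counts, and replicate libraries of a group differed by more than sampling noise. The same steps were tested on simulated counts for Rap 4 against control. There edgeR called 72.5% of 200 genes set to a 2-fold change, of which 199 passed the filter. It also called 7 unchanged genes among 24590 tested.

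Named genes are the 12 largest rises and 12 largest falls without overlap and with at least 1 CPM, up to 8 DE genes per list, and the leading genes of each list. A few list members are counted but not reported here by name. Further list members were named for their role after their values were seen. The gene lists, and the comparison itself, were chosen with earlier results of these data known. Alternatives were DESeq2 1.42.0, other filters, scalings and thresholds, a block for the replicate letter, all 24 mice in a single fit, each mouse left out, covariates for *Xist* and *Ttr*, a GC correction and thinned counts. The fit with *Ttr* was not planned and was added after the data were seen. The other 12 mice were used only in the fit of 24 mice, for scaling and for summed levels of lists. The labels do not say whether mice shared a litter or a day.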

Additional observations from a re-analysis of the deposited data

Results flagged for a closer look

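In 288 sets of 4 values, each the level of a named or list-leading gene in the controls or the Rap 4 mice, Dixon's ratio exceeded its critical value for 4 values in 17, where chance alone gives about 1 in 20. The ratio is the gap between the extreme mouse and its nearest neighbour, divided by the range of the group.

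Choroid plexus genes gave 4 of these. *Ttr* was at 1501 CPM in control mouse B, against 18.4 to 39.8 CPM in the other controls (ratio 0.986), and at 465 CPM in Rap 4 mouse C, against 5.69 to 48.1 CPM (0.908). *Folr1*, a folate receptor of the same epithelium, was at 11.4 CPM in control mouse B, against 0.183 to 0.629 CPM (0.96), and at 2.85 CPM in Rap 4 mouse C, against 0 to 0.43 CPM (0.849). Control mouse D stood apart for *Prkcd*, at 87.3 CPM against 27.1 to 30.1 CPM (0.952), and *Tnnt1*, at 6.3 CPM against 0.667 to 1.16 CPM (0.912), 2 genes of the list for brain regions beside the hippocampus. Their part in other results was not tested beyond the fit with *Ttr* as a covariate.

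Among oligodendrocyte genes, *Mbp* was at 1550.4 CPM in Rap 4 mouse D, against 1134 to 1143 CPM in the other Rap 4 mice (0.978), *Ugt8a* at 68.8 CPM in the same mouse, against 46.6 to 49.0 CPM (0.893), and *Gpr17* at 38.6 CPM in control mouse B, against 35.2 to 35.7 CPM (0.85). *Bfsp2* was at 1.81 CPM in Rap 4 mouse D, against 1.35 to 1.39 CPM (0.922). Rap 4 mouse C was the highest for *Ect2*, at 0.728 CPM against 0.416 to 0.467 CPM (0.838), and for *Plin2*, at 3.83 CPM against 2.6 to 2.78 CPM (0.856). *Trib3* was at 0.416 CPM in Rap 4 mouse A, against 0.284 to 0.304 CPM (0.846), and *Lamp2* at 69.3 CPM in Rap 4 mouse B, against 75.5 to 76.8 CPM (0.831). Among controls, *Eng* was at 12.6 CPM in mouse A, against 9.37 to 9.87 CPM (0.845). *Sp100* was at 2.47 CPM in control mouse D, against 3.70 to 3.79 CPM (0.938), and *Per2* at 35.9 CPM in the same mouse, against 44.5 to 46.0 CPM (0.852).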

How the results depend on the processing

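Between Rap 4 and control mice, 352 genes were DE. This count became 162 with all 24 mice in a single fit, 892 with no minimum fold change and 83 with a log2 fold change over 1, and it lay between 235 (without control mouse B) and 348 (without Rap 4 mouse D) with each mouse left out. The other alternatives gave 290 to 454 genes, among them 450 with DESeq2, 454 without a filter on low counts, 290 with *Xist* as a covariate and 303 with thinned counts. With *Xist*, 3 of 5 mitosis, 5 of 6 GTPase, 6 of 9 other interferon and 3 of 4 antigen presentation calls held. The lysosome call was lost, and all 16 homeostatic microglia, 5 endothelial, 5 sterol and 12 glucocorticoid calls held. Of the 352, 316 were also called by DESeq2. Of 94 named DE genes, none changed direction, 55 passed with each mouse left out, 36 passed under each of the 19 alternatives that kept the fold change threshold and 48 did not pass in the fit of all 24 mice, in which the spread is shared with groups such as day 13. The cause of these losses, in that fit or in the others, was not tested. The share of DE genes that were higher, 26.4%, was 25.4% to 30.3% under other scalings and with the GC correction, and the median log2 fold change of all genes moved by less than the 0.1 at which a shift is reported. The log2 fold change tended to be lower in genes of higher GC content (Spearman correlation -0.228 over 15765 protein-coding genes). With the GC correction, 299 of the 352 genes were still called. The 8 named calls lost there were those on *Iqgap3*, *Bmp4*, *Plin2*, *Mvd*, *S1pr3*, *Plk5*, *Arc* and *Hbb-bt*.

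For Rap 4 versus day 13, 5123 genes were DE (5840 with DESeq2, 5188 without a filter, and 3608 to 6025 with each mouse left out). For day 13 versus control, 4101 were DE (4955, 4107, and 2800 to 5305 in the same order).

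Replicate letters are shared between groups, but mice with the same letter did not deviate together, with correlations of -0.0287 to 0.0469 for Rap 4 versus control, -0.119 to 0.0391 for Rap 4 versus day 13 and -0.0133 to 0.058 for day 13 versus control, and not every mouse correlated best with its own letter. With the letter as a block, the counts were 365, 4531 and 3546, and 312 of the 352 genes were among the 365.

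Genes of few counts, such as *Bub1b* and *Mrgpra6*, limit what the smallest library can show. The design sets rapamycin, its daily injection, deletion, day and animal cohort together. A p-value here only weighs the difference between groups against the spread among 4 mice a group, estimated with information from all tested genes.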

Other observations

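Of the 352 DE genes, 260 were on none of the gene lists, and the following were chosen after their values were seen. *Adgre1*, which encodes the macrophage antigen F4/80, was at 7.34, 6.19, 5.27 and 5.36 CPM in control mice A to D and 3.78, 4.03, 3.06 and 3.13 CPM in Rap 4 mice A to D (log2 fold change, log2FC, -0.79, edgeR adjusted p = 0.00845). The lysozyme *Lyz2* was at 3.60 to 5.20 CPM in controls and 1.70 to 2.95 CPM in Rap 4 mice (-0.87, edgeR adjusted p = 0.0184), and the phosphatase *Ptpn6*, which restrains signalling in blood cells, at 2.56 to 3.23 and 1.10 to 1.81 CPM (-0.89, edgeR adjusted p = 0.0146). The perforin-like *Mpeg1* (-0.53) and the transcription factor *Irf5* (-0.53) passed too (edgeR adjusted p = 0.0112 and 0.0222). The calls were lost for *Lyz2* without control mouse B or C (edgeR adjusted p up to 0.057), for *Mpeg1* without control mouse A or Rap 4 mouse C (log2FC -0.46) and for *Irf5* without control mouse A, C or D or Rap 4 mouse A or C (edgeR adjusted p up to 0.0576 or log2FC -0.48). In none of these 5 genes did the groups overlap, which also held for 334 of the 352 DE genes from which they were chosen.

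*Ndp*, which encodes the ligand Norrin, was at 4.4, 4.1, 4.91 and 4.92 CPM in controls, 2.08, 2.56, 2.48 and 2.39 CPM in Rap 4 mice and 4.78, 5.52, 3.07 and 2.41 CPM on day 13 (log2FC -0.94 between Rap 4 and control, edgeR adjusted p = 0.0015). *Wnt7a*, a Wnt ligand, was at 7.47 to 9.99 CPM in controls, 4.99 to 6.76 CPM in Rap 4 mice and 4.29 to 6.24 CPM on day 13 (-0.59 and -0.71 against control, edgeR adjusted p = 0.0207 and 0.00868). The receptor *Fzd5* (-0.85) and the endothelial lectin *Clec14a* (-0.66) fell too (edgeR adjusted p = 0.0331 and 0.0399). The call on *Ndp* held with each mouse left out, and calls were lost for *Wnt7a* without control mouse A or C or Rap 4 mouse C (edgeR adjusted p up to 0.0563), for *Fzd5* without control mouse B, C or D or Rap 4 mouse A, B or C (edgeR adjusted p up to 0.103) and for *Clec14a* without control mouse B, C or D or Rap 4 mouse B or D (edgeR adjusted p up to 0.105).

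The lipid-binding protein *Fabp7*, known from radial glia and astrocytes, was at 17, 12.4, 13.3 and 12.9 CPM in controls and 5.06, 6.82, 7.09 and 6.33 CPM in Rap 4 mice (-1.12, edgeR adjusted p = 0.000523). *Nkx2-2*, a transcription factor of the oligodendrocyte lineage, was at 1.49 to 1.76 and 0.806 to 0.867 CPM (-0.98, edgeR adjusted p = 0.00514).

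Genes that rose included *Klf15*, a transcription factor known as a glucocorticoid target, at 18, 20.4, 19.4 and 19 CPM in controls, 32.8, 29.8, 33.2 and 24.7 CPM in Rap 4 mice and 11, 18.2, 19.9 and 25 CPM on day 13 (log2FC 0.65, edgeR adjusted p = 0.00176), and the lipase *Pnpla2* (0.59, edgeR adjusted p = 0.00867). *Fas*, a death receptor, was at 1.03 to 1.40 CPM in controls and 1.84 to 2.23 CPM in Rap 4 mice, and *Pmaip1*, which encodes the BH3 protein NOXA, at 1.33 to 1.58 and 2.29 to 2.76 CPM (log2FC values 0.81 and 0.82, edgeR adjusted p = 0.0149 and 0.0068). Both are known p53 targets, as is *Cdkn1a*, which is also counted on the glucocorticoid list. No list of p53 targets was drawn up, so how other such targets behaved is not shown. The call on *Pnpla2* was lost without control mouse A (log2FC 0.49) and that on *Fas* without control mouse B (edgeR adjusted p up to 0.0524). *Mrgpra6*, a sensory receptor gene, had no count in any control mouse and 0.312 to 0.365 CPM in Rap 4 mice.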
